A study of Rattus norvegicus with 12 samples.

Results

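The comparison described here set INS-1 832/3 cells that received urolithin B before islet amyloid polypeptide (IAPP) against cells that received IAPP alone, and asked what the pretreatment changed in the transcriptome of challenged cells. It took 3 urolithin B + IAPP libraries and 3 IAPP libraries, 6 of the 12 libraries in the series, chosen by their sample labels and paired by replicate number, and it covered all genes. INS-1 832/3 is a rat insulinoma line that makes and secretes insulin, and its genotype was given as WT. The IAPP group was exposed to 2 uM IAPP for 24 h. The urolithin B + IAPP group first had 50 uM urolithin B for 12 h and then the same IAPP exposure, so both groups carried the challenge. The other 6 libraries, untreated control cells and cells given 50 uM urolithin B for 12 h alone (3 each), were not challenged. The sources used here do not give the species of the IAPP sequence, whether urolithin B stayed on the cells during the challenge, or the time at which the cells given urolithin B alone were harvested. RNA was sequenced near the transcript 3′ end, and 1 deposited count stands for 1 read assigned to a gene.

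IAPP, also called amylin, is stored and released with insulin by beta cells, and some forms of it aggregate into the amyloid found in islets in type 2 diabetes. Urolithin B is a metabolite that gut bacteria make from the ellagitannins of pomegranate, berries and nuts. The transcription factor p53 is stabilised by many kinds of cell stress and switches on genes that halt the cell cycle, favour apoptosis or alter metabolism, among them Mdm2, whose product degrades p53 in a feedback loop. The mature beta-cell state rests on a network of transcription factors such as Pdx1 and Mafa, which keep up insulin, glucose transport and secretory granule genes, and on an endoplasmic reticulum equipped for heavy protein folding.

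Total counts ran from 4828003 to 5266959 in the 3 IAPP libraries and from 5224896 to 6681455 in the 3 urolithin B + IAPP libraries. The replicate 1 libraries stood apart in both groups, with 22615 and 22147 genes detected against 19529 to 20127 in replicates 2 and 3. Mitochondrial rRNA took 8.27% to 20.9% of the counts in IAPP libraries and 6.52% to 19.4% in urolithin B + IAPP libraries, lowest in replicate 1 of each group. The group means of this share, 15.1% ± 6.39 and 14.3% ± 6.85 (SD, n = 3), gave p = 0.8 in a two-sided exact permutation test, whose smallest possible p with 3 against 3 libraries is 0.1. Insulin transcripts marked all 6 libraries as beta-like: Ins1 and Ins2 together took 1.37% to 1.80% of the counts with IAPP and 1.74% to 1.98% after pretreatment. The labels call the 3 libraries of each group biological replicates, without saying how the cultures were separated. The p-values of the main edgeR fit reflect the spread left over all 12 libraries once group and replicate number are fitted. They do not carry the whole spread between the libraries of a group. Iapp itself, which beta cells are known to make, was listed at 0 in all 12 libraries, so the cells' own transcript could not be read. In bulk RNA, fewer cells that express a gene and less RNA per cell cannot be told apart.

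In challenged cells with urolithin B pretreatment, 422 genes were higher and 459 lower than with IAPP alone (edgeR quasi-likelihood test with the replicate number as a block, Benjamini-Hochberg adjusted p under 0.05). These were 2.51% and 2.73% of the 16814 genes tested, together 881 genes or 5.24%. The falls were larger than the rises. The genes called lower had a median log2 fold change of -0.62, with 89 of 459 changed by at least 2-fold, and the genes called higher had a median of 0.52, with 32 of 422. The median over all tested genes was -0.01. As the fit is blocked on the pairs, genes that move alike in them are favoured: all 459 lower genes fell in all 3 pairs and 421 of the 422 higher genes rose in all 3, where 3538 of all tested genes (21%) were positive and 3534 (21%) negative throughout. The libraries of the groups did not overlap for 359 of the lower and 297 of the higher genes, against 6.84% and 6.58% of all tested genes, 13.4% in both directions.

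The number of calls depended on the replicate block and on single libraries. Without the replicate block 26 genes were higher and 71 lower, 0.155% and 0.422% of those tested (97 genes, 0.577%), and all 97 were among the 881. With library size alone as the scaling, 190 genes were higher and 410 lower, and the share of rises among all calls dropped from 47.9% to 31.7%. The total fell to 603, 431 and 455 without IAPP replicate 1, 2 and 3, and to 585, 494 and 365 without urolithin B + IAPP replicate 1, 2 and 3. It rose to 1673 without urolithin B replicate 2, a library outside the comparison that shares the estimate of spread. Replicates 2 and 3 alone gave 144 higher and 276 lower with the block and 143 and 275 without it.

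**Figure D1:**
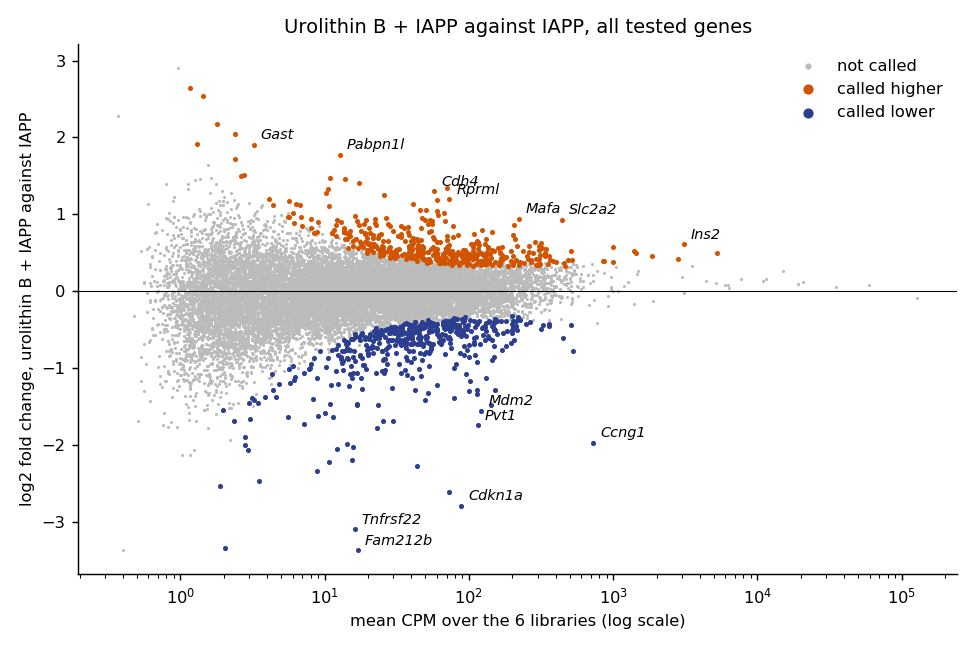
Each point is 1 of 16814 tested genes, with the mean CPM (counts per 1000000 counts, with TMM scaling) over the 6 libraries on a logarithmic x axis and the log2 fold change of urolithin B + IAPP against IAPP on the y axis. Orange points are the 422 genes called higher and blue points the 459 called lower, and the lower genes reach further from 0, to -3.37 for Fam212b.

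Genes that p53 is known to induce were among the largest falls. Among genes of cell cycle arrest and p53 feedback, 11 of 16 tested members (20 listed) were lower, 0 were higher and 5 were not called, with a median log2 fold change of -1.26. The shares of all tested genes in this fit, 2.73% lower and 2.51% higher, are the background for this and every later list. Counts under another setting have that setting's own background. Without the block it was 0.422% lower and 0.155% higher, and without replicate 1 276 lower and 144 higher of 14715 tested genes. With the 6 compared libraries alone it was 992 lower and 921 higher of 14331. Cdkn1a, which encodes the cyclin-dependent kinase inhibitor p21, stood at 174, 138 and 151 CPM in the IAPP libraries (replicates 1 to 3, here and in all such series) and at 25.3, 18.5 and 22.7 CPM in the urolithin B + IAPP libraries. Every pretreated library lay far below every library with IAPP alone, a 6.92-fold difference (-2.79 ± 0.13 on the log2 scale, ± SE, edgeR adjusted p = 1.36e-13). The untreated control libraries were at 17.8 ± 2.48 CPM (SD, n = 3). Tp53inp1, a p53 partner that favours arrest and death, went from 143, 112 and 118 CPM to 27.2, 15.9 and 18.5 CPM. The groups were again well apart, with a log2 fold change of -2.62 ± 0.13 (adjusted p = 5.01e-13).

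Ccng1, which encodes cyclin G1 and had the highest level of this list, was at 846, 1300.3 and 1318 CPM with IAPP and 204, 309 and 375 CPM after pretreatment. In each group replicate 1 was the lowest, and the groups did not overlap. The log2 fold change was -1.97 ± 0.12 (adjusted p = 3.04e-11). Mdm2, the ubiquitin ligase of the feedback loop, was at 215, 153 and 179 CPM with IAPP and at 60.2, 62.3 and 62.2 CPM after pretreatment, against 51.2 ± 4.05 CPM in control. The pretreated libraries were nearly equal to each other, and the fall was 1.56 ± 0.12 on the log2 scale (adjusted p = 1.52e-09). The kinase gene Plk2 (-2.34) and Phlda3 (-2.20), whose product restrains Akt, fell steeply from low levels, and Gtse1 (-1.42), Btg2 (-1.34), Zmat3 (-1.17), Ccng2 (-0.91) and Mdm4 (-0.55) completed the genes that fell. Gadd45a had a log2 fold change of -0.04 ± 0.17 (adjusted p = 0.95) and was not called. Without the block 9 of the 16 were called lower, and 9 without the replicate 1 libraries.

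**Figure D2:**
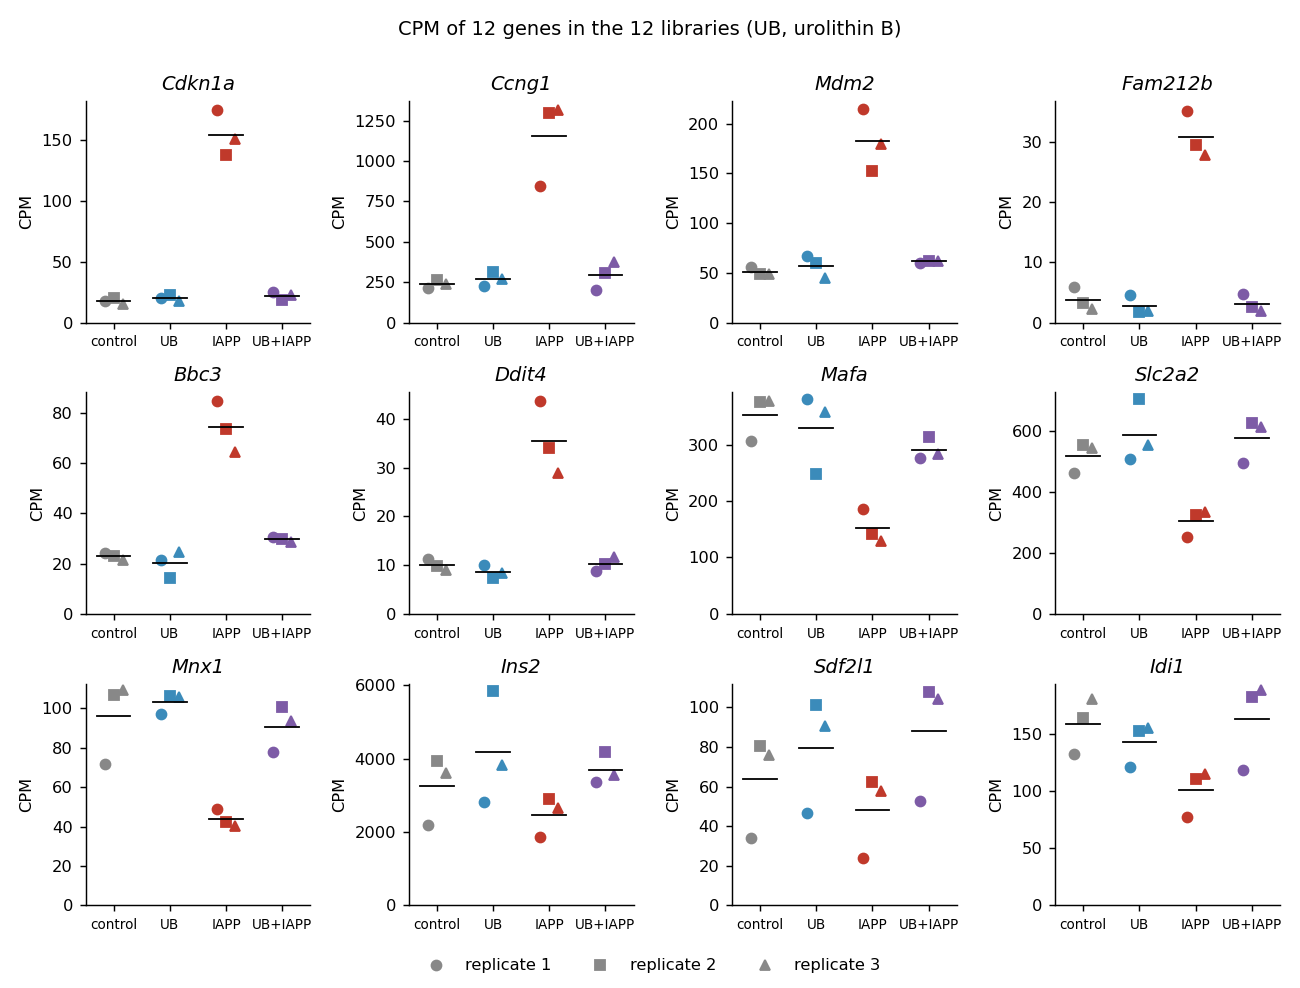
CPM of 12 genes in all 12 libraries, 1 panel per gene, with the y axis from 0 and the groups control, urolithin B (UB), IAPP and UB+IAPP on the x axis. Symbols mark the replicate number and the line the group mean. In the panels for Cdkn1a, Ccng1, Mdm2, Fam212b, Bbc3 and Ddit4 the IAPP libraries lie above the urolithin B + IAPP libraries, and in those for Mafa, Slc2a2 and Mnx1 below them.

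Promoters are shown for 3 genes that fell and hold a decamer of the p53 response element, so that the sequence context of the response can be read. They are 250 bases before the RefSeq transcript start in the GRCr8 assembly, written 5′ to 3′ on the strand of the gene, with the decamer in capitals. Cdkn1a is at chr20:7150682-7150931 on the plus strand, Ccng1 at chr10:25684877-25685126 on the minus strand and Aen at chr1:142224283-142224532 on the plus strand.
Cdkn1a: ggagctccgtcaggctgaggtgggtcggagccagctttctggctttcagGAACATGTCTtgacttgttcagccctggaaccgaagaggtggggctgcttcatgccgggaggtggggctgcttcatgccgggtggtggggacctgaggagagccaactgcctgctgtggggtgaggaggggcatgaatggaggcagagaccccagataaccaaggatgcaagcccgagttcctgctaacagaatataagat
Ccng1: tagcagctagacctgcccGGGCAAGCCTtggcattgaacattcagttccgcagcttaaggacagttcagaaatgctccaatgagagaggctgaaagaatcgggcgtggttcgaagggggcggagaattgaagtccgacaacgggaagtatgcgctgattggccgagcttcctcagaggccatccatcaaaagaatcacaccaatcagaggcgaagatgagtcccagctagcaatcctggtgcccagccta
Aen: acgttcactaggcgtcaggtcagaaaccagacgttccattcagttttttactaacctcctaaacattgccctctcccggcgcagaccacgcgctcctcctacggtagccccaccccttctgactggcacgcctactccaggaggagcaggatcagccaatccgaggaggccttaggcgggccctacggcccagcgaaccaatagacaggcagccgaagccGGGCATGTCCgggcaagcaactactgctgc
A promoter sequence was found for 11919 of the 16814 tested genes, 11310 by the same symbol and 609 by an older one. The decamer, searched on both strands by the standard consensus, was in 5 of the 19 promoters (26.3%) of called members of the p53 lists, namely Cdkn1a, Ccng1, Aen, Ei24 and Gtse1. It was in 7 of 38 promoters (18.4%) of all tested members, in 7.65% of the promoters of all genes called lower and in 715 of the 11919 promoters overall (6%). The full response element of paired decamers, with 0 to 13 bases between them, was in none of the 38 and in 4 of 11919. A match is a description of the letters in this window, and known p53 sites of these genes can lie outside it.

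Of the p53-induced genes of cell death, 7 of 16 tested members (18 listed) were lower and 1 was higher, with a median log2 fold change of -0.51. Bbc3, which encodes the BH3-only protein PUMA, was at 84.6, 73.5 and 64.4 CPM with IAPP and 30.7, 29.8 and 28.4 CPM after pretreatment, and at 22.8 ± 1.51 CPM in control. The pretreated libraries were close to each other and the groups did not overlap (-1.33 ± 0.14, adjusted p = 3.61e-07). Aen, an apoptosis-enhancing nuclease, went from 89.9, 80.5 and 80.99 to 33.4, 35.3 and 39.5 CPM (-1.22 ± 0.12, adjusted p = 8.13e-08). Unc5b, a netrin receptor that signals death when unbound, fell by 1.99 ± 0.22, and the death receptor gene Fas by 1.48 ± 0.24. Ei24 (-0.58) and Bax (-0.67) also fell, and Siva1, a proapoptotic gene, rose (0.58 ± 0.14, adjusted p = 0.00927). Pmaip1, which encodes NOXA, had -0.51 ± 0.55 and was not called (adjusted p = 0.698). In the fit without the block Aen, Bbc3 and Unc5b were among the 4 members called lower, Fas was not (adjusted p = 0.119), and 0 were higher.

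Among p53-induced genes of DNA repair and metabolism, 7 of 17 tested members (18 listed) were lower and 0 higher, with a median of -0.24. Ddit4, which encodes the mTORC1 inhibitor REDD1, was at 43.7, 34.04 and 28.9 CPM with IAPP and 8.897, 10.3 and 11.6 CPM after pretreatment. No pretreated library reached the lowest IAPP library, and the log2 fold change was -1.78 ± 0.18 (adjusted p = 1.85e-07). Sulf2, an extracellular heparan sulfatase, went from 49.1, 48.9 and 38.2 to 19.4, 8.18 and 15.2 CPM (-1.68 ± 0.19). Sesn2, a leucine sensor that also restrains mTORC1, fell by 0.64 ± 0.10 from 191, 165 and 171 to 114, 119 and 105 CPM. Cpt1c (-0.73), the thiamine transporter gene Slc19a2 (-0.94) and the translesion polymerase genes Polk (-0.47) and Polh (-0.49) were the remaining falls, and the nucleotide excision repair genes Xpc (-0.14) and Ddb2 (0.41) were not called. Without the block 3 of the 17 were called, with library size alone 5, with DESeq2 4, without replicate 1 or with replicates 2 and 3 alone and no block 3, and without replicate 3 4.

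The 15 largest falls were taken among called genes with a mean of at least 5 CPM in the higher group, no overlap and 1 direction in all pairs (319 genes met these terms), so the level after pretreatment could be lower. They ranged from -3.37 to -1.74 on the log2 scale. Fam212b, also known as Inka2, whose product inhibits the kinase PAK4, led them. It was at 35.2, 29.5 and 27.8 CPM with IAPP and 4.77, 2.52 and 1.88 CPM after pretreatment, with 3.82 ± 1.84 CPM in control, a 10.3-fold difference (adjusted p = 8.5e-10). Tnfrsf22, a decoy receptor for the death ligand TRAIL in mice, went from 36.9, 21.9 and 27.3 to 6.83, 1.05 and 2.74 CPM (-3.09 ± 0.30, adjusted p = 1.22e-07). Pretreated replicate 1 was the highest of its group for both genes and still under every IAPP library. Pvt1, a long noncoding RNA gene next to Myc with a known p53 response, was at 226, 135 and 168 CPM with IAPP and at 76.9, 43.02 and 40.4 CPM after pretreatment (-1.74 ± 0.12, adjusted p = 1.98e-10).

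Among the other large falls, Ano3, of the anoctamin family of channels and lipid scramblases, went from 90.1, 63.8 and 60.1 to 30.98, 10.1 and 7.18 CPM (-2.28 ± 0.20). Tubb6, a beta-tubulin, went from 16.5, 16.01 and 20.2 to 3.18, 3.99 and 4.103 CPM (-2.23 ± 0.28), while Tuba4a, an alpha-tubulin, rose by 0.64 ± 0.12 and the other 8 tested tubulin genes were not called. Tuba4a was not called without the block (adjusted p = 0.176). Tap1, the peptide transporter of antigen presentation, fell by 2.06 ± 0.27, and Lrrc25, a membrane protein gene with leucine-rich repeats, by 2.03 ± 0.24. Ttc22 fell by 2.47 ± 0.55 from at most 7.71 CPM, and its call ended without IAPP replicate 2 or 3 (adjusted p = 0.0509). Without the block 10 of the 15 were called, and those not called were Tnfrsf22, Ano3, Lrrc25, Tap1 and Ttc22 (adjusted p = 0.0553 to 0.737). DESeq2 did not call Plk2, Tubb6 or Ttc22.

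**Figure D3:**
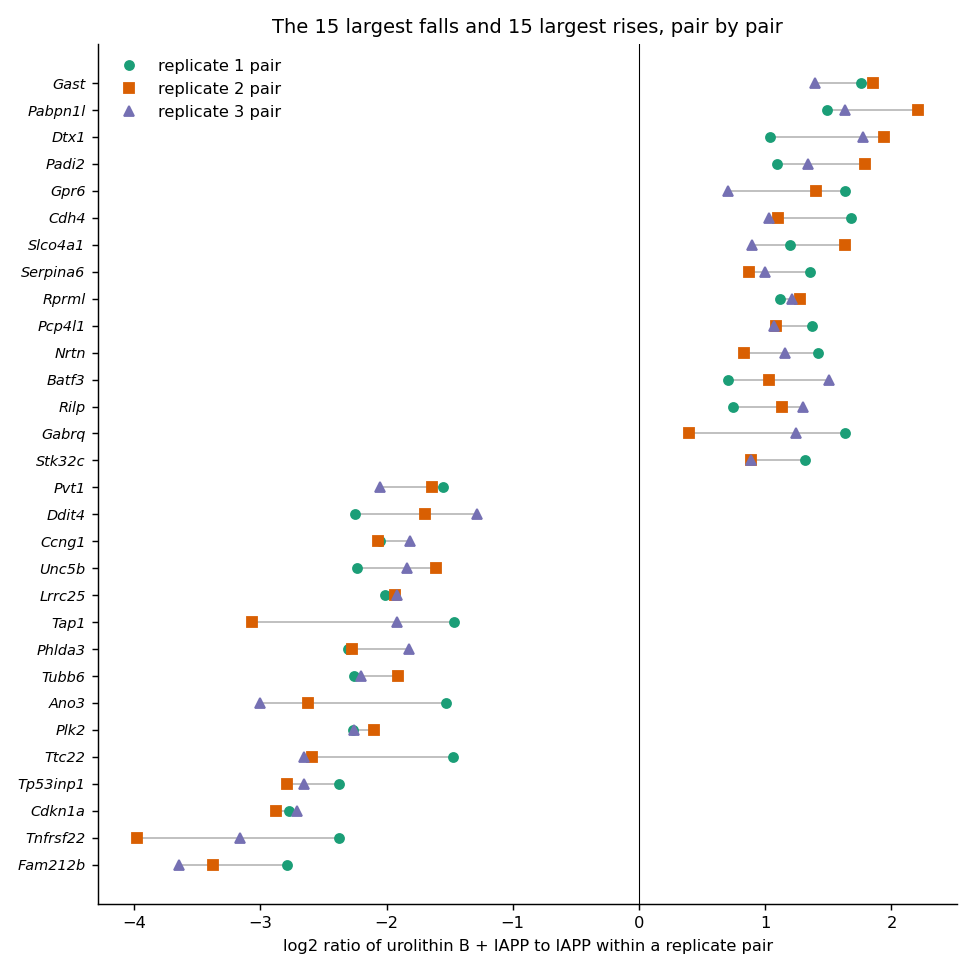
Log2 ratio of urolithin B + IAPP to IAPP within each replicate pair (x axis) for the 15 largest falls and the 15 largest rises (y axis), with 1 symbol per pair and a line over their range. One sign in all 3 pairs was a condition for these 30 genes, and the pairs are close for Cdkn1a, Plk2 and Rprml and wide for Tnfrsf22, Tap1 and Gabrq.

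Some mitotic genes fell as well, by less. Of 29 genes of G2 and mitosis, 7 fell and 0 rose, with a median log2 fold change of -0.26 and 27 of the 29 negative. Ckap2, a microtubule-associated protein of the mitotic spindle, fell most, from 156, 234 and 239.6 CPM to 60.2, 78.7 and 83.9 CPM. The groups were far apart (-1.49 ± 0.11, adjusted p = 2e-09), and control was at 75.04 ± 12.5 CPM. Kif20a, a kinesin of cytokinesis, fell by 0.73 ± 0.16, the phosphatase gene Cdc25c by 0.66 ± 0.15, the spindle gene Nusap1 by 0.52 ± 0.10, Top2a by 0.44, Tpx2 by 0.41 and Cenpf by 0.38. Mki67, the usual proliferation marker (-0.18 ± 0.11), and Cdk1 (-0.16 ± 0.18) were not called. Of 31 genes of S phase and DNA replication only Pcna, the polymerase clamp and another p53-responsive gene, was called, and it was higher (0.37 ± 0.11, adjusted p = 0.0492). Without the block only Ckap2 of the mitotic list and no gene of the replication list passed, and without replicate 3 also 1 and 0. The 6 compared libraries alone gave 15 mitotic falls, in a fit that called more genes throughout, 992 of 14331 lower. Single libraries ended other calls: Nusap1 without IAPP replicate 2 (adjusted p = 0.0636), Kif20a without IAPP replicate 2 or 3 or urolithin B + IAPP replicate 3 (adjusted p = 0.0555 to 0.0829), Cdc25c without IAPP replicate 2 or 3 or urolithin B + IAPP replicate 1 or 3 (adjusted p = 0.0602 to 0.0873) and Pcna without control replicate 1, 2 or 3, IAPP replicate 1, 2 or 3 or urolithin B + IAPP replicate 1 or 3 (adjusted p = 0.0516 to 0.311).

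Genes of oxidant and xenobiotic defence that passed the test were lower. Of 21 tested targets and regulators of NRF2, the transcription factor of the antioxidant response (28 listed), 4 fell and 0 rose, with a median of -0.08 near that of all genes. Nqo1, a quinone reductase that both NRF2 and the aryl hydrocarbon receptor induce, was at 19.4, 16.2 and 16.4 CPM with IAPP and 8.103, 7.13 and 7.35 CPM after pretreatment. The 3 pretreated libraries lay close together and below the others (-1.20 ± 0.20, adjusted p = 0.00038), and control was lower still at 4.802 ± 0.471 CPM. Nfe2l2, which encodes NRF2 itself, fell by 0.80 ± 0.15 from 56.99, 71.01 and 65.5 to 33.05, 40.7 and 37.6 CPM. Srxn1, sulfiredoxin, fell by 0.59 ± 0.14, and Ephx1, microsomal epoxide hydrolase, by 1.00 ± 0.26. In the aryl hydrocarbon receptor list, 2 of 5 tested genes (11 listed) fell, Nqo1 and the ADP-ribosyltransferase gene Tiparp (-0.74 ± 0.20). Without the block Nqo1 alone was called in either list. The call of Srxn1 ended without IAPP replicate 1 or 2 or urolithin B + IAPP replicate 1 (adjusted p = 0.0776 to 0.126), that of Ephx1 without IAPP replicate 1 or 2 or urolithin B + IAPP replicate 1, 2 or 3 (adjusted p = 0.0596 to 0.159) and that of Tiparp without IAPP replicate 2 or urolithin B + IAPP replicate 1 or 3 (adjusted p = 0.0767 to 0.284).

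Of 11 tested NF-kB and inflammation genes (24 listed), the cytokine gene Il15 and the interleukin 1 receptor gene Il1r1 were lower and 9 were not called, where 2.73% of all tested genes were lower. Il15 was at 55.7, 52.98 and 56.9 CPM with IAPP and 28.6, 23.3 and 23.4 CPM after pretreatment. These libraries were tight within each group and apart by 1.13 ± 0.12 on the log2 scale (adjusted p = 7.42e-07), a call that held without the block (adjusted p = 0.00222). Il1r1 fell by 0.52 ± 0.12; its groups overlapped, and the call ended without the block (adjusted p = 0.967) and without IAPP replicate 1 or urolithin B + IAPP replicate 3 (adjusted p = 0.0621 to 0.113). In the interferon and antigen processing list Tap1 fell and the other 15 tested genes (24 listed) were not called.

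Several genes of the mature beta cell were higher after pretreatment, and a few were lower. Of 22 tested beta-cell transcription factor genes (23 listed), 3 rose and 2 fell, with a median log2 fold change of 0.19. Mafa, an activator of insulin transcription in mature cells, was at 186, 142 and 128 CPM with IAPP and 275, 313 and 284 CPM after pretreatment. All pretreated libraries were above all IAPP libraries (0.94 ± 0.14, adjusted p = 0.000106), and control stood at 353 ± 40.2 CPM. Mnx1, a homeodomain factor of beta-cell fate, went from 48.8, 42.4 and 40.3 to 77.9, 101 and 93.5 CPM (1.02 ± 0.13, adjusted p = 7.72e-06). Pdx1, the master factor of pancreas and beta cells, went from 58.4, 68.8 and 82.8 to 89.6, 110.2 and 92.3 CPM, a smaller rise with groups that came close (0.49 ± 0.11, adjusted p = 0.0071). Nkx6-1, a factor that sustains beta-cell identity, moved the other way, from 40.6, 43.5 and 50.5 to 28.1, 24.8 and 29.1 CPM (-0.71 ± 0.13, adjusted p = 0.000725). The zinc finger gene Myt1 fell by 0.43 ± 0.12, and Pax6 (0.28 ± 0.10), Nkx2-2 (0.28 ± 0.14) and Isl1 (0.21 ± 0.11) were not called. Without the block Mnx1, Mafa and Nkx6-1 were called; Pdx1 was not (adjusted p = 0.37), and its call also ended without IAPP replicate 2 or urolithin B + IAPP replicate 1 or 2 (adjusted p = 0.0572 to 0.0871). Without all 4 replicate 3 libraries no gene of this list was called lower.

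Among 19 tested genes of glucose sensing, ion channels and receptors (23 listed), 5 rose and 1 fell, with a median of 0.15. Slc2a2, the glucose transporter GLUT2 of rodent beta cells, was at 252, 327 and 335 CPM with IAPP and 496, 628 and 614 CPM after pretreatment. Each pretreated library exceeded the highest IAPP library, and the rise was 0.93 ± 0.10 on the log2 scale (adjusted p = 9.38e-07). Receptor genes rose too: Gpr119, a lipid receptor that promotes insulin release, by 0.92 ± 0.18, the receptor gene for the incretin GIP, Gipr, by 0.47 ± 0.11, and the somatostatin receptor gene Sstr3 by 0.59 ± 0.16. The calcium channel genes split, with the beta subunit gene Cacnb3 higher (0.38 ± 0.11) and the pore gene Cacna1c lower, from 492, 538 and 607 to 381, 334 and 359 CPM (-0.61 ± 0.12, adjusted p = 0.00206). The potassium channel genes Kcnj11 (0.20 ± 0.10) and Abcc8 (-0.03 ± 0.11), and Glp1r (0.03 ± 0.13) were not called. Without the block Slc2a2 alone was called, with library size alone 3 rose, without replicate 1 3 rose and 1 fell, and without replicate 3 2 rose. The call of Gipr ended without IAPP replicate 2 or urolithin B + IAPP replicate 3 (adjusted p = 0.0914 to 0.0931).

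Of 18 tested prohormone and granule genes (19 listed), 4 rose and 0 fell, with a median of 0.18. Ins2 was at 1856, 2887 and 2665 CPM with IAPP and 3362, 4173 and 3559.9 CPM after pretreatment. Pairwise the rise was present each time, largest in replicate 1, and it came to 0.61 ± 0.14 on the log2 scale (adjusted p = 0.00672). Ins1, the more abundant insulin transcript, was at 9269.5, 16684 and 15234 and 11045, 19320.2 and 19003 CPM and was not called (0.26 ± 0.14, adjusted p = 0.335). Pcsk2, a convertase that cuts proinsulin, rose by 0.52 ± 0.11, the granule protein gene Chga by 0.50 ± 0.13 and Nucb2, the precursor of nesfatin, by 0.45 ± 0.10. Without the block, and also without the replicate 1 libraries, no gene of this list was called (adjusted p for Ins2 without the block = 0.641). Single libraries mattered for Ins2, not called without IAPP replicate 2 or urolithin B + IAPP replicate 1 (adjusted p = 0.0757 to 0.084), for Chga, not called without IAPP replicate 2 or 3 or urolithin B + IAPP replicate 2 or 3 (adjusted p = 0.0872 to 0.115), and for Nucb2, not called without IAPP replicate 1 or 2 or urolithin B + IAPP replicate 2 (adjusted p = 0.055 to 0.0716).

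In the exocytosis list 2 of 23 genes rose, both of them Rab3 GTPases that tether granules. Rab3b was at 47.996, 38.3 and 30.9 CPM with IAPP and 90.9, 70.3 and 79.5 CPM after pretreatment (1.05 ± 0.11, adjusted p = 9.38e-07), and Rab3a rose by 0.50 ± 0.13. Of 7 tested genes of GABA synthesis and handling (10 listed), both glutamate decarboxylase genes rose. Gad1 went from 14.9, 14.2 and 13.7 to 29.2, 21.2 and 21.2 CPM (0.75 ± 0.15, adjusted p = 0.00259), with control at 35.1 ± 2.68 CPM, and Gad2 rose by 0.51 ± 0.15. In the list of amyloid-degrading enzymes and amylin receptor parts, Ece1, an endothelin-converting protease that can degrade amyloid, rose from 42.1, 35.4 and 38.4 to 61.96, 69.7 and 67.4 CPM (0.77 ± 0.13, adjusted p = 0.000299). Bace2, a beta-cell protease, fell from 161, 199.96 and 199.7 to 116, 112 and 113 CPM (-0.72 ± 0.12, adjusted p = 0.000337), and 9 of the 11 tested genes were not called. Without the block Rab3b and Ece1 were called, while Rab3a, Gad1, Gad2 and Bace2 were not (adjusted p = 0.0612 to 0.878). Without replicate 1 neither Gad gene was called. The call of Rab3a ended without IAPP replicate 1, 2 or 3 or urolithin B + IAPP replicate 1 or 3 (adjusted p = 0.0605 to 0.216), and that of Gad2 without control replicate 1, 2 or 3, IAPP replicate 1, 2 or 3 or urolithin B + IAPP replicate 1 or 3 (adjusted p = 0.0524 to 0.337).

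The 15 largest rises under the same terms (250 genes met them) ranged from 1.05 to 1.91 on the log2 scale. Gast, the gastrin gene, was at 0.963, 1.13 and 2.05 CPM with IAPP and 4.13, 5.04 and 5.98 CPM after pretreatment (1.91 ± 0.44, adjusted p = 0.00896). At these low levels the groups were separate but the SE was wide. Pabpn1l, a poly(A)-binding protein gene known from oocytes, went from 6.74, 4.06 and 6.14 to 19.5, 20.1 and 19.8 CPM, a 3.42-fold rise with nearly equal pretreated libraries (adjusted p = 5.19e-06). Rprml, an intronless relative of the arrest gene reprimo, went from 60.8, 38.5 and 33.9 to 132, 93.8 and 79.2 CPM (1.20 ± 0.12, adjusted p = 1.21e-07). Cdh4, R-cadherin, went from 33.2, 35.2 and 30.9 to 107, 75.8 and 63.4 CPM (1.30 ± 0.13, adjusted p = 2.55e-07).

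Pcp4l1, a small protein related to a calmodulin regulator, rose by 1.19 ± 0.12 and Nrtn, the neurotrophic factor neurturin, by 1.14 ± 0.13. Stk32c, a kinase gene, went from 29.1, 30.7 and 30.03 to 72.8, 57.1 and 55.7 CPM, with IAPP libraries that hardly differed. Padi2, a peptidylarginine deiminase, rose by 1.41 ± 0.19, Dtx1, a ubiquitin ligase of the Notch pathway, by 1.48 ± 0.24, the orphan receptor gene Gpr6 by 1.33 ± 0.22 and the organic anion transporter gene Slco4a1 by 1.28 ± 0.24. Gabrq, a GABA-A receptor subunit (1.11), Batf3, a leucine zipper factor (1.14), Rilp, a lysosomal adaptor of Rab7 (1.13), and Serpina6, the corticosteroid-binding globulin (1.20), rose from lower levels. Without the block Pabpn1l, Cdh4, Stk32c, Padi2 and Gpr6 were called and the other 10 were not (adjusted p = 0.0853 to 0.445). The call of Gast ended without IAPP replicate 2 or urolithin B + IAPP replicate 1 (adjusted p = 0.0626 to 0.113), that of Gabrq without IAPP replicate 1 or urolithin B + IAPP replicate 3 (adjusted p = 0.0578 to 0.0967), that of Batf3 without IAPP replicate 3 or urolithin B + IAPP replicate 3 (adjusted p = 0.0864 to 0.089), that of Rilp without IAPP replicate 3 or urolithin B + IAPP replicate 2 or 3 (adjusted p = 0.0566 to 0.0684) and that of Serpina6 without IAPP replicate 1, 2 or 3 or urolithin B + IAPP replicate 1 or 2 (adjusted p = 0.0623 to 0.236).

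Endoplasmic reticulum chaperone and unfolded protein response genes had moderate rises. Of 26 tested genes, 9 rose and 1 fell, with a median log2 fold change of 0.31 against -0.01 for all genes. Sdf2l1, a chaperone cofactor of the lumen, was at 24.1, 62.4 and 57.6 CPM with IAPP and 52.7, 108 and 104 CPM after pretreatment. Replicate 1 was the lowest in both groups, so the groups overlapped although every pair rose (0.91 ± 0.11, adjusted p = 2.57e-06). Creld2, a disulfide isomerase-like gene, went from 14.9, 48.5 and 55.97 to 34.3, 90.6 and 86.7 CPM with the same overlap (0.87 ± 0.13, adjusted p = 0.000153). Manf, a secreted stress-protective factor, rose by 0.55 ± 0.10 from 33.9, 64.5 and 78.3 to 53.9, 98.6 and 102 CPM. Hspa5, the lumenal Hsp70 BiP, was at 768, 1352 and 1425 and 969, 2136 and 1959 CPM (0.49 ± 0.12, adjusted p = 0.0143). The folding genes Hyou1 (0.51), Dnajb11 (0.47), Hsp90b1 (0.39) and Dnajc3 (0.39) and the degradation gene Sel1l (0.48) also rose. Ern1, the stress sensor IRE1, fell (-0.40 ± 0.12, adjusted p = 0.0444), and Xbp1 (0.13 ± 0.12) and Atf6 (0.00 ± 0.11) were not called.

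With all 12 libraries in the fit, these calls needed the replicate block. Without the block none of the 26 was called in either direction (adjusted p for Sdf2l1 = 0.644 and for Manf = 0.899), while replicates 2 and 3 alone, with no block, gave 5 rises, the block without replicate 1 also 5, without replicate 2 6, and without replicate 3 4. The call of Hspa5 ended without IAPP replicate 2 or 3 or urolithin B + IAPP replicate 2 or 3 (adjusted p = 0.0572 to 0.137). The fall of Ern1 was not called with library size alone, with DESeq2 or with either other low-count filter. It was also not called without replicate 1, 2 or 3.

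Of the 9 genes that rose, 8 had a promoter sequence, and 4 of these 8 held the endoplasmic reticulum stress element on either strand, spelled CCAAT, then 9 bases of any kind, then CCACG: Hspa5, Hsp90b1, Dnajc3 and Creld2. Printed here are 3 of them, in the same form as above (RefSeq, GRCr8), with the element in capitals, which on the reverse strand reads from CGTGG to ATTGG. Hspa5 is at chr3:38452766-38453015 on the plus strand, Hsp90b1 at chr7:23012294-23012543 on the minus strand and Creld2 at chr7:121789134-121789383 on the plus strand.
Hspa5: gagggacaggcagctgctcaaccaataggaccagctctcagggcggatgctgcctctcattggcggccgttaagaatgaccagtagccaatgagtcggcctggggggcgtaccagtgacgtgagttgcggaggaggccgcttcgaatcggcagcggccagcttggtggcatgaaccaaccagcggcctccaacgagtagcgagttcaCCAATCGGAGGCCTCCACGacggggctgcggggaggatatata
Hsp90b1: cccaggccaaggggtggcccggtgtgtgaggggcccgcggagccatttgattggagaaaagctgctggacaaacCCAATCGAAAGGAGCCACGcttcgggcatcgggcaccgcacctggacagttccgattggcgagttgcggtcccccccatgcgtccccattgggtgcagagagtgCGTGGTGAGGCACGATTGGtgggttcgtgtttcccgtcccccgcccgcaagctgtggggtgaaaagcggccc
Creld2: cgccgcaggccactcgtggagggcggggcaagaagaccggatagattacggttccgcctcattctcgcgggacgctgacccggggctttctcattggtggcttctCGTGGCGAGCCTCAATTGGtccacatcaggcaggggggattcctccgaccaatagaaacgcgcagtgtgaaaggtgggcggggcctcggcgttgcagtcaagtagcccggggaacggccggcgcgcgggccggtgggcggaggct
The element was in 8 of the 20 promoters (40.0%) of tested list members, in 5 of 301 (1.66%) promoters of all genes called higher, in none of 353 of the genes called lower, and in 16 of 11919 (0.134%) of all. It contains the CCAAT box, which was in all 20 promoters of the list and in 34.8% of all. The list members that hold the element and were not called were Calr (0.26), Canx (0.13), Derl3 (0.33) and Xbp1 (0.13).

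Genes of the integrated stress response, which slows translation and adjusts amino acid supply, moved in both directions: 6 of 21 tested (26 listed) rose and 1 fell, with a median of 0.22. The stress regulator gene Nupr1 went from 8.99, 11.5 and 12.7 to 21.1, 21.4 and 21.5 CPM, with pretreated libraries nearly equal (0.97 ± 0.19, adjusted p = 0.00172). Atf4, the central factor of the pathway, rose by 0.35 ± 0.10, Atf5 by 0.57 ± 0.15, the serine synthesis genes Psph by 0.49 ± 0.13 and Psat1 by 0.45 ± 0.13, and the lipoprotein receptor gene Vldlr by 0.48 ± 0.13. Atf3, an early stress factor that p53 also induces, fell by 1.46 ± 0.42 (adjusted p = 0.0384). The death-promoting factor gene Ddit3, also called CHOP, was at 16.4, 20.1 and 24.3 CPM with IAPP and 13.03, 23.7 and 23.8 CPM after pretreatment, and its sign changed between settings (-0.03 ± 0.18, adjusted p = 0.955). Of 18 aminoacyl-tRNA synthetase genes 3 rose, Nars (0.41), Iars (0.42) and Aars (0.34), and of 23 tested cytosolic heat shock and chaperonin genes (27 listed) 0 were called. Without the block no gene of these 3 lists was called, nor any of the stress response list without replicate 1, and library size alone left 1 rise and 1 fall in that list. The fall of Atf3 was also not called with DESeq2 or without replicate 2 or 3. Single libraries also decided Atf5, not called without IAPP replicate 2 or urolithin B + IAPP replicate 1 or 3 (adjusted p = 0.0684 to 0.173), Psph, not called without IAPP replicate 1 or 2 or urolithin B + IAPP replicate 2 or 3 (adjusted p = 0.0949 to 0.136), Vldlr, not called without IAPP replicate 1, 2 or 3 or urolithin B + IAPP replicate 1, 2 or 3 (adjusted p = 0.0698 to 0.158), Nars, not called without IAPP replicate 2 or 3 or urolithin B + IAPP replicate 2 or 3 (adjusted p = 0.114 to 0.221), Iars, not called without IAPP replicate 2 or 3 or urolithin B + IAPP replicate 1 or 3 (adjusted p = 0.0968 to 0.288), and Aars, not called without control replicate 1, 2 or 3, IAPP replicate 1, 2 or 3 or urolithin B + IAPP replicate 1, 2 or 3 (adjusted p = 0.053 to 0.225).

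Cholesterol synthesis and uptake had the highest median of the metabolic lists, 0.44, with 10 of 23 tested genes (25 listed) higher, 0 lower and 22 of 23 positive. Idi1, an isomerase of the mevalonate pathway, was at 77.7, 111 and 115 CPM with IAPP and 118, 182 and 189 CPM after pretreatment. Each pair rose by a similar ratio, and the log2 fold change was 0.68 ± 0.10 (adjusted p = 7.09e-05). Fdps, which makes farnesyl diphosphate, went from 34.8, 50.7 and 48.7 to 61.6, 74.5 and 75.4 CPM (0.67 ± 0.12, adjusted p = 0.000661). Insig1, the sterol-dependent brake on the pathway, rose by 0.66 ± 0.12, Hmgcs1, which feeds it, by 0.69 ± 0.13, and the late enzyme gene Ebp by 0.86 ± 0.19. The sterol carrier gene Stard4 (0.59) and the enzyme genes Dhcr7 (0.49), Msmo1 (0.47), Cyp51 (0.38) and Sqle (0.37) rose too. Of 12 tested fatty acid synthesis genes (14 listed) 3 rose, Elovl6 (0.51), Fads1 (0.42) and Acly (0.39), and among 13 tested genes of fatty acid oxidation (16 listed) only Cpt1a, the mitochondrial gatekeeper, was called. It was lower, from 35.3, 39.7 and 27.98 to 23.04, 18.3 and 14.2 CPM (-0.89 ± 0.16, adjusted p = 0.000795).

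With the block left out no gene of these 3 lipid lists was called (adjusted p for Idi1 = 0.265). In the cholesterol list 6 genes rose with library size alone, 5 without replicate 1, 7 without replicate 2, 4 without replicate 3, and 4 with replicates 2 and 3 alone and no block. The fatty acid synthesis calls ended with library size alone and without replicate 1 or replicate 3. Elovl6 was not called without IAPP replicate 1, 2 or 3 or urolithin B + IAPP replicate 1 or 2 (adjusted p = 0.0683 to 0.141), Fads1 without IAPP replicate 1 or 3 or urolithin B + IAPP replicate 1 or 3 (adjusted p = 0.061 to 0.101) and Acly without IAPP replicate 1, 2 or 3 or urolithin B + IAPP replicate 1, 2 or 3 (adjusted p = 0.0593 to 0.111). The sterol regulatory element, spelled ATCAC, then 1 base of any kind, then CCAC, and searched on both strands, was in 0 of 16 promoters of the cholesterol list and in 13 of 11919 (0.109%) of all, while the CCAAT box was in 13 of the 16 (81.2%). Only this spelling was searched, in windows of 250 bases, so the 0 does not show that these genes lack a sterol element.

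Genes of the protein synthesis machinery had small positive fold changes, of which a minority passed the test. All 78 tested cytosolic ribosomal protein genes (79 listed) had positive fold changes, with a median of 0.30, and 17 were called higher. Rps13 was at 46.1, 65.4 and 68.7 CPM with IAPP and 92.3, 96.3 and 100.02 CPM after pretreatment (0.71 ± 0.13, adjusted p = 0.000874), Rpl32 rose by 0.58 ± 0.11, Rpl27 by 0.49 ± 0.11 and Rpl13 by 0.47 ± 0.11. The group's share of all counts was 1.72% ± 0.168 with IAPP and 2.03% ± 0.262 after pretreatment (SD, n = 3; two-sided exact permutation p = 0.2, smallest possible 0.1, a test that does not use the pairing), and it was higher in each of the 3 pairs. Translation factors had 5 of 41 tested genes higher (median 0.16), among them the initiation factor gene Eif2s2 (0.39). In ribosome biogenesis 3 of 26 genes were higher (median 0.29), with Nolc1 (0.34), Rrp12 (0.44) and Nop58 (0.34), and 0 were lower in either list. Ribosomal protein genes have many near-identical copies in the genome, and how the counter treated multi-mapping reads is not known here, so the value of any single member is uncertain.

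None of the genes of these 3 lists was called without the block or without replicate 1, and 3 ribosomal protein genes were called with library size alone, 25 with limma-voom, 28 without the low-count filter, 55 with the 6 compared libraries alone and 3 without replicate 3. The fit of the 6 compared libraries called more genes throughout, 921 of 14331 higher. Ribosome biogenesis and translation factors had no call with library size alone or without replicate 3, and ribosome biogenesis none without replicate 2. The call of Rpl27 ended without IAPP replicate 1 or urolithin B + IAPP replicate 2 (adjusted p = 0.0511 to 0.102), that of Rpl13 without IAPP replicate 2 or urolithin B + IAPP replicate 1 or 3 (adjusted p = 0.0833 to 0.0952), that of Eif2s2 without IAPP replicate 2 or urolithin B + IAPP replicate 2 or 3 (adjusted p = 0.0681 to 0.128), that of Nolc1 without IAPP replicate 1, 2 or 3 or urolithin B + IAPP replicate 1, 2 or 3 (adjusted p = 0.0593 to 0.178), that of Rrp12 without control replicate 1, 2 or 3, IAPP replicate 1, 2 or 3 or urolithin B + IAPP replicate 1, 2 or 3 (adjusted p = 0.0524 to 0.269) and that of Nop58 without control replicate 1, 2 or 3, IAPP replicate 1, 2 or 3 or urolithin B + IAPP replicate 1, 2 or 3 (adjusted p = 0.0502 to 0.284).

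Nuclear genes of the mitochondrion had small positive fold changes as well. Of 74 tested mitochondrial ribosomal protein genes (76 listed), 5 rose, among them Mrpl54 (0.55), Mrps7 (0.61), Mrpl42 (0.47) and Mrps34 (0.47), with a median of 0.23. Of 73 tested nuclear respiratory chain genes (75 listed), 6 rose, with a median of 0.23 and 70 positive; Ndufb5, a complex I subunit, went from 101, 115 and 118 to 138, 161 and 151 CPM (0.43 ± 0.10, adjusted p = 0.00724), and Atp5c1, of the ATP synthase, rose by 0.38 ± 0.10. The 13 transcripts of the mitochondrial genome were not called, with a median of 0.10; the cytochrome b transcript CYTB was at 3507, 8689 and 9511 and 3958, 11347 and 8991 CPM (0.15 ± 0.16). Proteasome subunit genes had 1 of 33 higher, Psmb4 (0.34), a share near the 2.51% of all tested genes, with a median of 0.14. No gene of these lists was called without the block, and with library size alone only 1 respiratory chain gene was. Without replicate 1 the calls were 1 mitochondrial ribosomal protein gene and 0 respiratory chain genes. The 6 compared libraries alone gave 17 and 23, where 921 of all 14331 tested genes were higher. Calls ended for Mrpl54 without IAPP replicate 2 or 3 or urolithin B + IAPP replicate 3 (adjusted p = 0.0526 to 0.304), for Mrps7 without IAPP replicate 1 or 2 or urolithin B + IAPP replicate 1 or 3 (adjusted p = 0.0593 to 0.283), for Mrpl42 without IAPP replicate 1, 2 or 3 or urolithin B + IAPP replicate 1 or 3 (adjusted p = 0.0669 to 0.237), for Mrps34 without IAPP replicate 1 or 2 or urolithin B + IAPP replicate 1 or 2 (adjusted p = 0.0844 to 0.273), for Ndufb5 without IAPP replicate 2 or urolithin B + IAPP replicate 2 (adjusted p = 0.0555 to 0.0581), for Atp5c1 without IAPP replicate 1 or 2 or urolithin B + IAPP replicate 1, 2 or 3 (adjusted p = 0.0581 to 0.21) and for Psmb4 without control replicate 1, 2 or 3, IAPP replicate 1, 2 or 3 or urolithin B + IAPP replicate 1 or 3 (adjusted p = 0.0577 to 0.297).

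**Figure D4:**
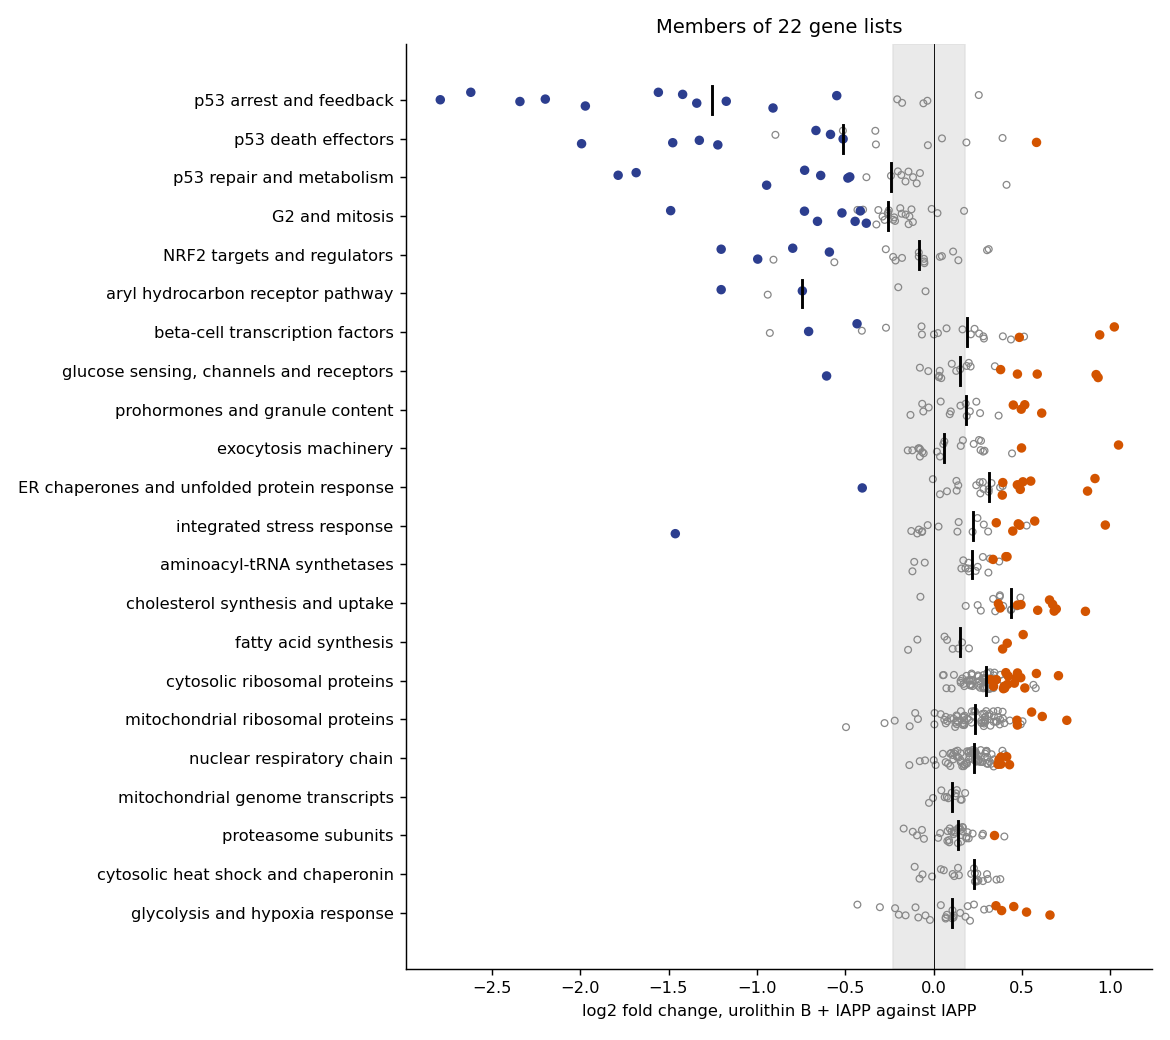
Log2 fold change of urolithin B + IAPP against IAPP (x axis) for the tested members of 22 gene lists (y axis), with 1 point per gene. Filled orange points were called higher, filled blue points lower, and open points were not called; the black bar is the list's median and the grey band the range from -0.23 to 0.18 that holds the middle of all tested genes between their quartiles. The p53 lists reach furthest to the left, and the cytosolic ribosomal protein genes all lie right of 0.

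Given alone to unchallenged cells, urolithin B changed 1 gene past the threshold, 0.00595% of those tested. At an unadjusted p under 0.05 there were 740 genes, less than the 0.05 share of tested genes that would pass with no effect at all. The 1 called gene was Gcg, the proglucagon gene of alpha cells, which rose by 0.95 ± 0.13 (adjusted p = 0.00103) against control, a comparison that shares no library with the challenged one. In challenged cells Gcg stood at 26.3, 133 and 116 CPM with IAPP and 40.4, 179.8 and 202 CPM after pretreatment. Each pair rose, the groups overlapped, and the log2 fold change was 0.63 ± 0.12 (adjusted p = 0.002). The urolithin B effects with and without the challenge differed by -0.32 (adjusted p = 0.45). Gcg was not called in either setting without the block, and in challenged cells not without urolithin B + IAPP replicate 3 (adjusted p = 0.0927). Against control its count of 1 became 0 without control replicate 3 or without all replicate 1 libraries, 2 without urolithin B replicate 1 and 4 without urolithin B replicate 3. The next smallest p-values against control belonged to Camk4 (0.59 ± 0.11), the heat-stable enterotoxin receptor gene Gucy2c (0.56 ± 0.10), the granule gene Chgb (0.47 ± 0.11) and Erlec1 (0.51 ± 0.12), none of them called. In challenged cells Gucy2c rose by 0.99 ± 0.11 (adjusted p = 9.29e-07), a call that ended without the block. Camk4, Chgb and Erlec1 had 0.24 ± 0.11, -0.13 ± 0.11 and 0.05 ± 0.12 in challenged cells.

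Whether the urolithin B difference depended on the challenge was tested directly, by the difference between its effect in challenged and in unchallenged cells. As the harvest time of cells given urolithin B alone is not known, the challenge and the time since urolithin B cannot be told apart here. The difference between the effects was called for 274 genes (1.63% of those tested), with the challenged effect higher for 103 (0.613%) and lower for 171 (1.02%). Of the 422 genes called higher after pretreatment 98 were among them, and of the 459 called lower 161. The difference contains the challenged effect by which these genes were called, so this overlap is partly built in. The smallest p-values were those of Cdkn1a (difference -2.98, adjusted p = 7.06e-10), Tp53inp1 (-2.79), Ccng1 (-2.13), the atypical cadherin gene Fat1 (-1.47) and Mdm2 (-1.71). Fat1 was at 165, 233 and 247 CPM with IAPP and 65.9, 106 and 95.2 CPM after pretreatment, and its effect in unchallenged cells was 0.19 ± 0.10. Among beta-cell genes the difference was called for Mafa (1.06), Mnx1 (0.91), Nkx6-1 (-0.82) and Slc2a2 (0.76), and not for Ins2 (0.26, adjusted p = 0.608). Without the block 5 genes were called and with library size alone 171. The count was 143 and 176 without control replicate 2 and 3, 163 and 167 without IAPP replicate 2 and 3, and 167 and 142 without urolithin B + IAPP replicate 2 and 3.

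**Figure D5:**
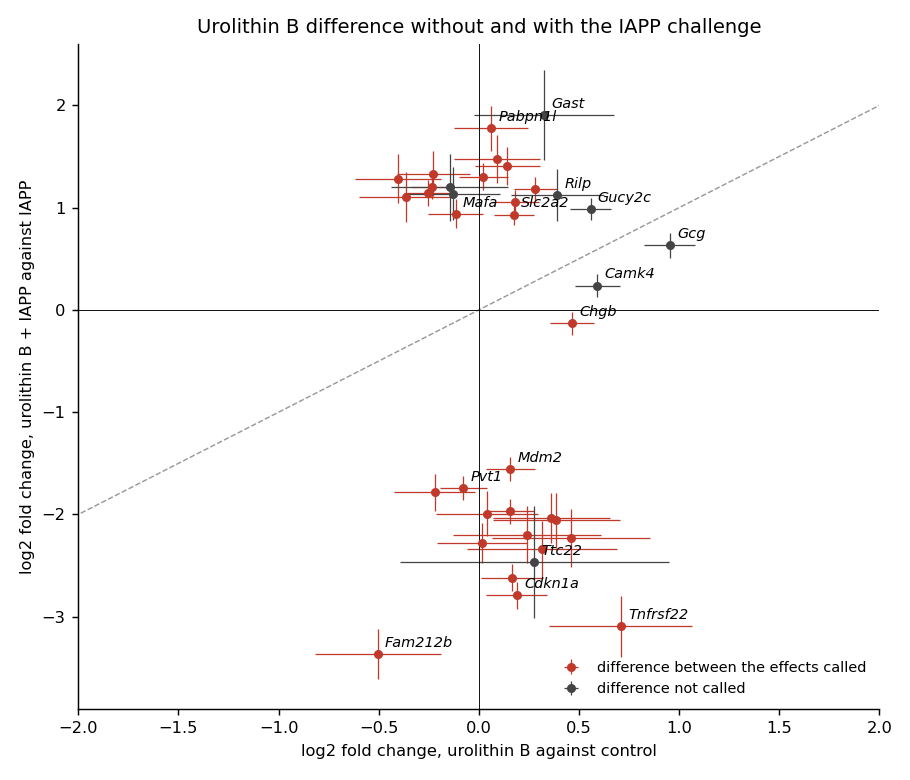
Log2 fold change of urolithin B against control (x axis) and of urolithin B + IAPP against IAPP (y axis) for 37 genes, the 15 largest falls, the 15 largest rises and others named in the text, with bars for the SE and a dashed line where both would be equal. Red marks the 29 genes whose difference between the effects was called and grey the 8 for which it was not. Of these, 30 were chosen for a large value on the y axis, so their distance from 0 there is set by the choice. Gcg, Gucy2c, Camk4 and Chgb had small p-values against control by the naming rule, so their distance from 0 on the x axis is also set by choice. Gcg, Gucy2c and Camk4 lie nearer the line, and for Chgb the difference between the effects was called.

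Summed levels of other cell types' markers differed between replicate numbers and between the groups. Of 10 non-beta islet markers 2 were tested, Gcg and Ghrl, and Sst and Ppy were listed at 0 in all 12 libraries. Summed CPM over the list ran from 39.4 to 125 with IAPP and from 57.8 to 180.4 after pretreatment, with a rise in each pair that is largely Gcg. The sum of exocrine and ductal markers, mostly Krt8, was 264 to 332 with IAPP and 303 to 432 after pretreatment and also rose in each pair. Of 5 tested exocrine and ductal markers (13 listed) the keratin gene Krt8 rose (0.37 ± 0.11, adjusted p = 0.0404), but not without the block (adjusted p = 0.458), and Prss1 and Cpa1 were listed at 0. Fibroblast, endothelial and immune markers had 2, 5 and 3 tested genes and no call, though Col1a1 was called lower without replicate 1, without urolithin B + IAPP replicate 1, with the 6 compared libraries alone and with no low-count filter. The collagen gene Col1a2 and the lysozyme gene Lyz2 were listed at 0 in all 12 libraries while Col1a1, Ptprc and Pecam1 had counts, and since Iapp was listed at 0 too, a listed 0 does not show that a transcript is missing. Their summed CPM was highest in replicate 1 of both groups: for fibroblast genes 78.9 with IAPP and 49.6 after pretreatment, against 2.22 to 7.25 in replicates 2 and 3. The fibroblast and immune sums were lower after pretreatment in each pair, and immune genes ran from 7.21 to 49.9 with IAPP and from 6.14 to 39.4 after pretreatment. Endothelial genes ran from 6.65 to 34.1 and from 9.13 to 25.8, with no common direction. Col1a1, a fibroblast collagen, was at 61.3, 6.76 and 6.598 CPM with IAPP and 36.4, 1.47 and 1.88 CPM after pretreatment, Kdr, of endothelium, at 4.17, 1.803 and 1.14 and 3.34, 3.78 and 4.96 CPM, and the macrophage gene Adgre1 at 20.1, 5.64 and 5.005 and 15.6, 4.41 and 4.27 CPM. The part of these genes in the results was not tested. Without the replicate 1 libraries, the calls included 6 falls in G2 and mitosis, 5 falls and 1 rise in p53 death genes, 2 rises and 1 fall in beta-cell transcription factors, 2 falls in the NRF2 list, 1 fall each in the aryl hydrocarbon receptor and NF-kB lists, and 1 rise in the synthetases. The call of Krt8 ended without control replicate 2, IAPP replicate 1, 2 or 3 or urolithin B + IAPP replicate 1, 2 or 3 (adjusted p = 0.0519 to 0.241).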

How the data were processed

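Gene expression was measured by 3′ RNA sequencing of INS-1 832/3 cells in 4 groups of 3 libraries, grouped by their titles. Per the labels' protocols the library kit was QuantSeq 3prime mRNA FWD, whose reads lie near the poly(A) tail, so counts need no length correction. FastQC, Bowtie2 and SAMtools are named per the submitters' processing notes, without versions; counter, build and annotation were not given in the sources used here. Raw whole-number counts were deposited by the authors as 1 table with 31368 gene names, of which 24611 had a count. The series text says that this table was corrected after release. All 12 libraries entered 1 edgeR 4.0.16 fit in R 4.3.3 (TMM scaling, filterByExpr on the group, quasi-likelihood F-test, Benjamini-Hochberg adjustment at 0.05), with the replicate number as a block. CPM of single genes is per 1000000 of the library total times its TMM factor, and SE is the absolute log2 fold change divided by the square root of F. The summed marker CPM leaves the TMM factor out.

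The pairing follows the biological replicate numbers of the labels, which name no shared day, passage or batch for a number, and was checked in the data: deviations from the group means correlated between same-numbered libraries with r from 0.44 to 0.89 over 18 pairs (0.62 to 0.89 for the compared pairs). It rested on replicate 1, since without it r was -0.06 to 0.02. The common biological coefficient of variation was 0.104 with and 0.332 without the block. Libraries of the same group always differed beyond sampling noise (chi-square per degree of freedom at least 3.71).

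Alternatives were the fit without the block, the 6 libraries alone, other scalings and low-count filters, DESeq2 1.42.0, limma-voom (limma 3.58.1) and libraries left out. The replicates 2 and 3 fit without a block and the list counts per setting were added after seeing the data. The libraries compared, the 40 gene lists and the rule for named genes were chosen with earlier results of these data known. The rule took the 15 largest rises and falls among called genes that reached 5 CPM in the higher group, with no overlap and 1 direction in all pairs, up to 4 called members with the smallest p per list (or 1 if none was called), Ins1, Ins2, Cdkn1a, Mdm2, Mafa, Slc2a2, Nqo1, Ddit3, Hspa5, Txnip and Gcg, and the 5 smallest p-values of the other contrasts. Other list members named were chosen after their values were seen, and some members counted in the lists are not reported by name. Tests were checked on counts simulated with a level per replicate number and the spread of the blocked fit. The blocked fit recovered 87% of 2-fold and 100% of 4-fold changes with 9 false calls, and the fit without the block 42% and 85% with 0. As the pairing was built in and no smaller change was planted, this check cannot judge the pairing or the smaller calls. Promoters are RefSeq sequences of GRCr8, used for sequence alone.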

Additional observations from a re-analysis of the deposited data

Results flagged for a closer look

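The urolithin B effect differed between challenged and unchallenged cells for 274 genes by the test of the difference itself (edgeR adjusted p under 0.05), 1.63% of those tested. Of the 132 named genes 56 were among them. Many were named for a challenged call or a small p of this difference, so that count follows from the naming. The time since urolithin B may also differ between challenged and unchallenged cells. The values given here are the log2 fold change of urolithin B + IAPP against IAPP minus that of urolithin B against control. The most negative differences, where the challenged effect lay at least 2 log2 units lower, were those of Tnfrsf22 (-3.80), Cdkn1a (-2.98), Fam212b (-2.86), Tp53inp1 (-2.79), Tubb6 (-2.69), Plk2 (-2.65), Tap1 (-2.44), Phlda3 (-2.44), Lrrc25 (-2.39), Ano3 (-2.29), Ccng1 (-2.13), Sulf2 (-2.09) and Unc5b (-2.03). They were followed by Mdm2 (-1.71), Pvt1 (-1.67), Fas (-1.59), Ddit4 (-1.56), Ckap2 (-1.54), Fat1 (-1.47), Nqo1 (-1.35) and Il15 (-1.22). Smaller negative differences belonged to Aen (-1.20), Cpt1a (-1.16), Bbc3 (-1.13), Npc2 (-1.005), Il1r1 (-0.91), Nkx6-1 (-0.82), Sesn2 (-0.73), Cacna1c (-0.64) and Chgb (-0.60).

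Positive differences, where the urolithin B effect was higher in challenged cells, were largest for Pabpn1l (1.71), Slco4a1 (1.69), Gpr6 (1.56), Gabrq (1.47), Rprml (1.43), Nrtn (1.39), Dtx1 (1.39), Cdh4 (1.28) and Padi2 (1.27). Next came Rab3b (1.13), Mafa (1.06), Gad1 (1.03), Ece1 (0.91), Mnx1 (0.91), Pcp4l1 (0.90), Stk32c (0.87), Idi1 (0.83) and Insig1 (0.82), with the beta-cell genes Mafa and Mnx1, the decarboxylase gene Gad1 and sterol genes among them. The remaining positive differences were those of Creld2 (0.76), Manf (0.76), Slc2a2 (0.76), Rpl27 (0.73), Hmgcs1 (0.73), Tuba4a (0.67), Rpl32 (0.65) and Sdf2l1 (0.58). Chgb is the 1 gene here that was called in neither single comparison; its effects were 0.47 ± 0.11 without and -0.13 ± 0.11 with the challenge. Without the replicate block 5 genes were called for the difference.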

How the results depend on the processing

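With the replicate block removed, the counts were 26 higher, 71 lower, 5 for the difference between challenged and unchallenged cells and 0 for urolithin B against control (151 genes at an unadjusted p under 0.05), against 422, 459, 274 and 1 with it. The 6 compared libraries alone gave 921 higher and 992 lower, library size alone 190 higher and 171 for the difference, and no low-count filter 475 for the difference and 15 against control, where DESeq2 gave 5 and limma-voom 0 (900 at an unadjusted p under 0.05). With no effect a share near 0.05 of tested genes would pass an unadjusted p under 0.05, and 151 lay below that share and 900 near it. Replicates 2 and 3 alone with no block gave 143, 275, 107 and 0. Leaving out 1 library or 1 replicate number gave 110 to 892 higher, 130 to 781 lower, 70 to 395 for the difference and 0 to 4 against control. Signs reversed for 3 named genes, none of them called: Erlec1 ran from -0.031 (without urolithin B + IAPP replicate 3) to 0.10 with libraries left out, the mitochondrial rRNA gene mt-Rnr2 from -0.36 (without urolithin B + IAPP replicate 2) to 0.17 (without IAPP replicate 3), and Ddit3 from -0.17 (without IAPP replicate 2) to 0.092 (without urolithin B + IAPP replicate 1), with 0.085 for replicates 2 and 3 alone and no block. The cause was not tested. The 132 named genes include some not called in the main fit, which had no call to lose. Of the called ones, 89 lost their call without the block, 33 with library size alone, 15 with DESeq2 and 6 with limma-voom. Among all named genes no other sign turned under any setting run. Depth limits the low genes: Gast, Ttc22 and Serpina6 stood under 8 CPM in all 6 libraries.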

Other observations

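Of 29 tested glycolysis and hypoxia genes (31 listed) 5 rose and 0 fell, where 2.51% of all tested genes rose, with a median of 0.11. Pdk1, the kinase that restrains pyruvate dehydrogenase, went from 21.8, 17.8 and 19.6 CPM with IAPP to 31.8, 30.6 and 31.1 CPM after pretreatment (0.66 ± 0.14, edgeR adjusted p = 0.00324), and the enolase gene Eno1 rose by 0.53 ± 0.11, with overlapping groups. Bnip3, a mitophagy receptor induced by hypoxia, had 0.45 ± 0.12 (adjusted p = 0.0251) and Ndrg1, another hypoxia gene, 0.35 ± 0.10 (adjusted p = 0.0366). Without the block none of them was called, nor without replicate 3, and single libraries ended calls: Eno1 without urolithin B + IAPP replicate 3 (adjusted p = 0.0931), Bnip3 without IAPP replicate 1 or 3 or urolithin B + IAPP replicate 2 or 3 (adjusted p = 0.11 to 0.15) and Ndrg1 without control replicate 2, IAPP replicate 1, 2 or 3 or urolithin B + IAPP replicate 1, 2 or 3 (adjusted p = 0.0533 to 0.192).

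In the autophagy and lysosome list 2 of 29 tested genes (30 listed) fell. Npc2, the lysosomal cholesterol carrier, went from 37.9, 46.4 and 45.05 to 23.2, 19.3 and 23.9 CPM, with no overlap (-0.95 ± 0.15, adjusted p = 0.000181; 0.0344 without the block). Wipi1, of autophagosome formation, fell by 0.43 ± 0.12 with overlapping groups and was not called without the block (adjusted p = 0.999) or without control replicate 2, IAPP replicate 1, 2 or 3 or urolithin B + IAPP replicate 1, 2 or 3 (adjusted p = 0.0507 to 0.283). Of 23 tested immediate early genes (26 listed) Myc rose (1.02 ± 0.30, adjusted p = 0.0444) from low levels, 1.93, 5.64 and 4.55 to 5.402, 6.92 and 11.6 CPM, and Ier5 fell (-0.72 ± 0.19, adjusted p = 0.0224). Neither was called without the block; the call of Myc ended without control replicate 2, IAPP replicate 1 or 3 or urolithin B + IAPP replicate 1, 2 or 3 (adjusted p = 0.0549 to 0.354) and that of Ier5 without IAPP replicate 1 or 2 or urolithin B + IAPP replicate 1, 2 or 3 (adjusted p = 0.0609 to 0.244). Gast was the 1 called gene of 10 tested markers of dedifferentiation or genes normally silent in beta cells (13 listed). Txnip, a glucose-induced inhibitor of thioredoxin, had 0.16 ± 0.15 and was not called (adjusted p = 0.651). Among mitochondrial rRNAs, mt-Rnr2 was at 49985, 142792 and 201188 CPM with IAPP and 40283, 185851 and 152643 CPM after pretreatment (-0.09 ± 0.23), and the chaperonin gene Hspd1 had 0.31 ± 0.10 (adjusted p = 0.0768).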
